A study of Ophioderma brevispina with 7 samples.

Results

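The 200 most abundant transcript clusters of the regenerating arm of the brittle star Ophioderma brevispina were chosen by 1 rule from a table of 1,012,953 clusters. The counts of each library were divided by the library's total and multiplied by 1,000,000 (CPM), the CPM of the 6 libraries were averaged, and the 200 clusters with the highest mean were taken. The members' levels are therefore a description of how they were chosen, whereas the comparison of DAPT with DMSO arms was not part of the rule. A cluster is a set of assembled contigs grouped by shared reads and by expression patterns, with the groups DMSO and DAPT given to the grouping tool. The number before the point in its name is its super-cluster, a larger group of contigs linked by shared reads. The table holds counts alone and gives the clusters no gene name, sequence or length, so no member can be assigned a function, and the tissue could not be checked against marker genes. CPM are not corrected for transcript length, so the order of the members is an order of reads and not of molecules.

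The study asked what inhibition of the Notch pathway changes in arms that regrow after autotomy. In the DAPT group, 3 adult animals were kept in 3 µM DAPT from 24 h before autotomy to day 14 after it, and in the DMSO group 3 adult animals received the matching amount of DMSO, the solvent of DAPT, over the same period. All arms were autotomized at segment 15 counted from the disk, and each library holds the last stump segment and the whole outgrowth of 3 arms of 1 animal. A pooled library made for the assembly has no column of counts and is not analysed here.

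Notch is a receptor at the cell surface that is cut after it binds a ligand on a neighbouring cell, and the fragment released by gamma-secretase enters the nucleus and changes transcription. DAPT blocks gamma-secretase, which also cuts other membrane proteins. In most animal tissues a small set of transcripts, commonly those of the ribosome, the mitochondrion, the cytoskeleton and the main products of the specialised cells, takes up a large part of the reads, and a change in any of them shifts the share left for the rest.

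The totals were 63,069,231, 47,579,683 and 47,932,842 counts in the DAPT libraries and 40,640,099, 35,731,131 and 53,975,986 counts in the DMSO libraries. DAPT libraries were therefore deeper on average, and the part of depth in the differences between the groups was not tested. The median member had 20,623 counts in its median library, where counting error alone is 0.696%. Of the 200 members, 194 had at least 1000 counts in every library and 173 had at least 10,000. All 200 passed the minimum of 10 counts summed over the libraries that was set for the tests.

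The members made up 0.0197% of the clusters but held a large part of the counts. Their summed share was 14.9%, 14.7% and 16.5% in the DAPT libraries, against 16.9%, 16.5% and 16.7% in the DMSO libraries. The means were 15.4% ± 1.0 in DAPT and 16.7% ± 0.191 in DMSO arms (SD, n = 3 each), a difference of -1.34 percentage points. DAPT 3 lay inside the DMSO range at its lower end, and the other two DAPT libraries lay below it. The share of the 10 highest clusters separated the groups, with 3.95%, 4.28% and 4.33% in DAPT and 5.11%, 5.04% and 5.00% in DMSO libraries.

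**Figure D1:**
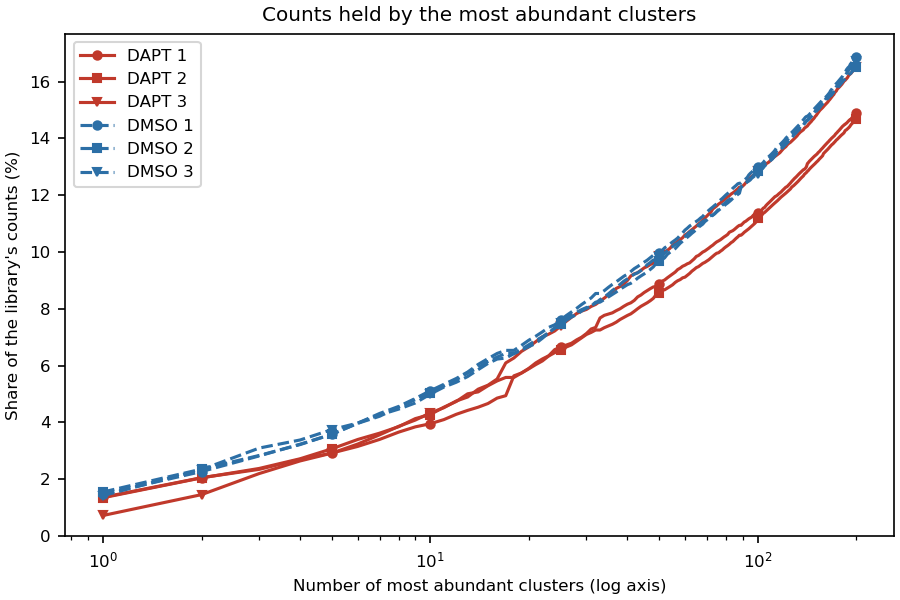
Share of each library's counts (%, vertical axis) held by the most abundant clusters, against the number of clusters added in order of mean CPM (log axis), with 1 line per library. At 10 clusters the DAPT libraries hold 3.95 to 4.33% and the DMSO libraries 5.00 to 5.11%, and at 200 clusters DAPT 3 (16.5%) has reached the DMSO libraries.

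Levels fell off steeply with rank. Cluster-178672.177272 was far above the others, with 13,626, 13,452 and 7203 CPM in DAPT and 14,751, 15,482 and 14,204 CPM in DMSO arms. It alone took 0.720 to 1.36% of a DAPT library and 1.42 to 1.55% of a DMSO library. DAPT 3 was the outlying library for this cluster, and the groups did not overlap. A further 28 members averaged between 1000 and 10,000 CPM, 58 between 500 and 1000 CPM and 113 under 500 CPM, and the median was 470.0 CPM.

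The clusters that followed at ranks 2 to 5 were likewise in the largest super-cluster. Cluster-178672.227551 had 6886, 6998 and 7346 CPM in DAPT and 7919.8, 8044 and 9162 CPM in DMSO arms, with no overlap between the groups. Cluster-178672.309947 had 2931, 3315 and 7417 CPM in DAPT and 5504, 4816 and 7573 CPM in DMSO arms, so that DAPT 3 stood with the DMSO libraries. The values of Cluster-178672.67059 overlapped, with 3507, 3409 and 4441 CPM in DAPT and 4129, 3830.0 and 2845 CPM in DMSO arms. Cluster-178672.31558 had 2238, 3507 and 2745 CPM in DAPT and 3470.0, 3631 and 3651 CPM in DMSO arms. DAPT 2 lay just above DMSO 1 on this scale, whereas with libraries scaled by TMM, a normalisation that balances most clusters, the groups did not overlap.

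Ranks 6 to 10 averaged between 2221 and 3149.8 CPM. Cluster-193432.0, the only contig set of its super-cluster, had 2333, 3278 and 3199 CPM in DAPT and 3930.4, 3844 and 2315 CPM in DMSO arms. Cluster-178672.81760, Cluster-178672.192819 and Cluster-202956.2 overlapped between the groups in the same way, and their highest library was 1.53 to 1.56 times the lowest. Cluster-178672.309938 had 1099.8, 1435 and 2520.0 CPM in DAPT and 2714, 2425 and 3132 CPM in DMSO arms. Only DAPT 3 reached the DMSO range in this cluster, as in Cluster-178672.309947, whose number is 9 away. Of the 10 highest clusters, 8 had a mean log2 fold change below 0.

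At the lower end the choice of 200 cut through a continuum. Cluster-178672.228283 and Cluster-178672.364171, the last inside, averaged 304.1 and 303.5 CPM, and Cluster-178672.348634 and Cluster-178672.107196, the first outside, averaged 302.9 and 302.1 CPM. Each library's own list of its 200 highest clusters held 167 to 174 of the members, and 112 members were in the lists of all 6 libraries. Which clusters close to the limit count as members therefore depends on the library.

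**Figure D2:**
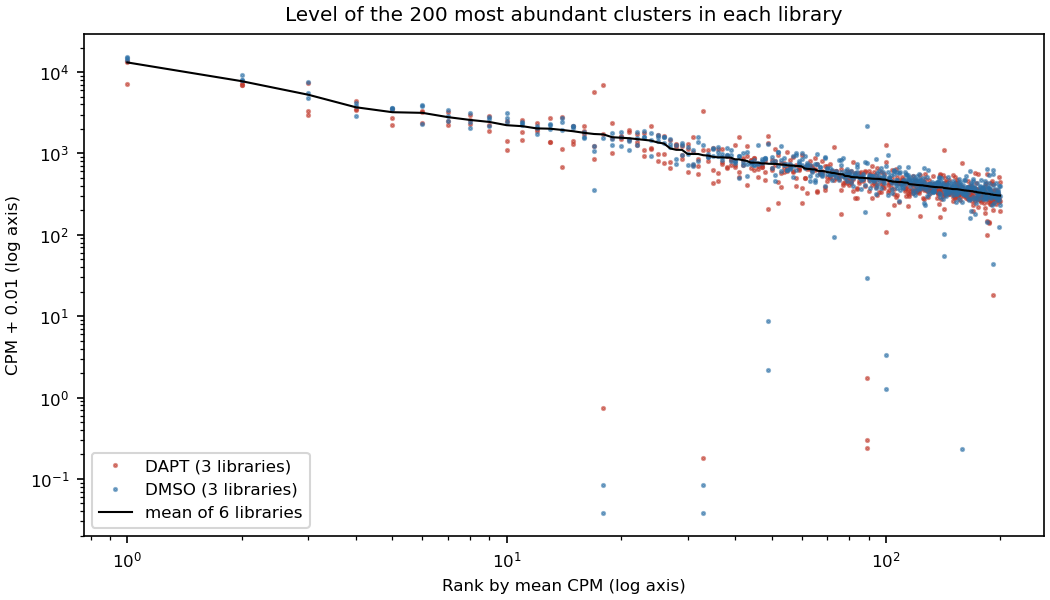
CPM of each member in each library (0.01 added, log axis) against its rank by mean CPM (log axis), with DAPT libraries in red, DMSO libraries in blue and the mean of the 6 as a line. Most points lie close to the line, which runs down to 303.5 CPM at rank 200, and a few members drop below 10 CPM in 1 or more libraries.

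Most members were similar in the 6 animals. The highest library was 1.72 times the lowest at the median (with 1 CPM added to each), and 133 members (66.5%) differed by less than 2-fold. Among the next 1800 clusters by rank that median was 1.89, and 54.4% differed by less than 2-fold. The coefficient of variation between animals of 1 group, averaged over the groups, had a median of 16.7% for the members, 20.4% for the next 1800 clusters and 31.9% for the 62,367 clusters with at least 100 counts on average. The median was 18.6% among DAPT animals and 14.5% among DMSO animals, both many times the counting error.

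The members with the smallest ratio over the 6 libraries were, by that choice, also alike in both groups. Cluster-178672.145236 had 416, 385 and 435 CPM in DAPT and 404, 375 and 420.0 CPM in DMSO arms, a highest-to-lowest ratio of 1.16. Cluster-158163.3 had 352, 299 and 332 CPM in DAPT and 347, 335 and 316 CPM in DMSO arms. Cluster-178672.82511, Cluster-178672.256778 and Cluster-178672.327296 had ratios of 1.18, 1.2 and 1.2. The 95% intervals of the log2 fold change in these 5 clusters ran at most to -0.41 and 0.30. DMSO 3 was the highest library in 56 members and DAPT 1 the lowest in 55, whereas DMSO 1 was the lowest in only 14.

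A minority of 12 members differed by at least 5-fold between libraries, 10 of them by at least 10-fold and 6 by at least 100-fold. These shares (6.0%, 5.0% and 3.0%) were lower than among the next 1800 clusters (13.9%, 8.94% and 4.22%). A rule that averages CPM can admit a cluster that is high in a few libraries alone, and 4 members drew over 50% of their summed CPM from 1 library.

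The largest contrast was in Cluster-30973.3, with 6986, 0.736 and 1733 CPM in DAPT and 0.0738, 0.028 and 1544 CPM in DMSO arms. It had 440,605 counts in DAPT 1 and 1 count in DMSO 2. Cluster-51310.3 followed it library by library, with 3323, 0.168 and 1102 CPM in DAPT and 0.0738, 0.028 and 1274 CPM in DMSO arms. In each case 2 of 3 DAPT animals and 1 of 3 DMSO animals held nearly all the reads, so the pattern ran across the treatment. The other clusters of both super-clusters shared it, the 4 relatives of Cluster-51310.3 summing to 481, 0.105 and 179 CPM in DAPT and 0.0492, 0 and 271 CPM in DMSO arms. These members together took 1.03% of the counts of DAPT 1, 0.284% of DAPT 3 and 0.282% of DMSO 3.

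Cluster-178672.367463 and Cluster-117789.1 formed another such pair although their super-clusters differ. Cluster-178672.367463 had 208, 1338 and 1620.2 CPM in DAPT and 2.17, 1301 and 8.69 CPM in DMSO arms. Cluster-117789.1 had 108, 1259 and 778 CPM in DAPT and 1.25, 700.0 and 3.33 CPM in DMSO arms. DMSO 1 and DMSO 3 were the lowest libraries in both, DAPT 1 came next, and each cluster's highest DMSO library lay within the DAPT range.

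Cluster-178672.270567 was low in a single library, with 388, 771 and 385 CPM in DAPT and 0.221, 252 and 330.1 CPM in DMSO arms. DMSO 1 had 9 counts of it, and every DAPT library lay above every DMSO library. Its most abundant neighbour in number, Cluster-178672.270575, which is no member, had 603, 1.18 and 0.252 CPM in DAPT and 91.5, 1033 and 8.45 CPM in DMSO arms. DAPT 2, DAPT 3 and DMSO 3 were thus low in that neighbour where the member was high. The next neighbours by level, Cluster-178672.270573, Cluster-178672.270571 and Cluster-178672.270564, were instead lowest in DMSO 1, as the member was. Cluster-178672.270573 had 219, 649 and 184 CPM in DAPT and 1.21, 168 and 112 CPM in DMSO arms.

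Cluster-178672.410020 was the only one of these 6 members with every DAPT library below every DMSO library. It had 1.74, 0.231 and 0.292 CPM in DAPT and 29.4, 2184 and 761 CPM in DMSO arms. Its counts were 110, 11 and 14 in DAPT libraries and 1194, 78,027 and 41,101 in DMSO libraries. Over the pooled reads it was 1084-fold lower in DAPT than in DMSO arms (exact binomial 95% interval 916 to 1293, which covers counting error only), but the DMSO animals themselves ranged between 29.4 and 2184 CPM. Its mean passed the rank limit through the DMSO libraries alone, so the direction of this ratio follows from how it was admitted. The 40 clusters within 20 numbers of it summed to 121, 13.7 and 275 CPM in DAPT and 69.4, 2424 and 1145 CPM in DMSO arms. DMSO 1 lay within the DAPT range for this sum. The most abundant neighbour, Cluster-178672.410032, had 0.0634, 0.105 and 0.167 CPM in DAPT and 10.6, 1109 and 514 CPM in DMSO arms. In Cluster-178672.410023 and Cluster-178672.410022, the next by level, every DAPT library also lay below every DMSO library. In Cluster-178672.410021, which followed, DMSO 1 (2.98 CPM) lay below DAPT 1 (3.44 CPM).

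The other members past 5-fold were less extreme. Cluster-178672.84053 had 849.9, 1222 and 5656 CPM in DAPT and 1083, 1220.2 and 358 CPM in DMSO arms, and its neighbour Cluster-178672.84051 was likewise highest in DAPT 3 and lowest in DMSO 3. Cluster-178672.272554, with a ratio of 32.3, had 18.3, 420.2 and 202 CPM in DAPT and 622, 43.7 and 552 CPM in DMSO arms. Summed with its 40 neighbours in number it varied far less, at 1691, 2059.9 and 1389 CPM in DAPT and 2770.1, 2600.2 and 2931 CPM in DMSO arms, a ratio of 2.11. In that sum all DAPT libraries lay below all DMSO libraries, which the member itself does not show.

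**Figure D3:**
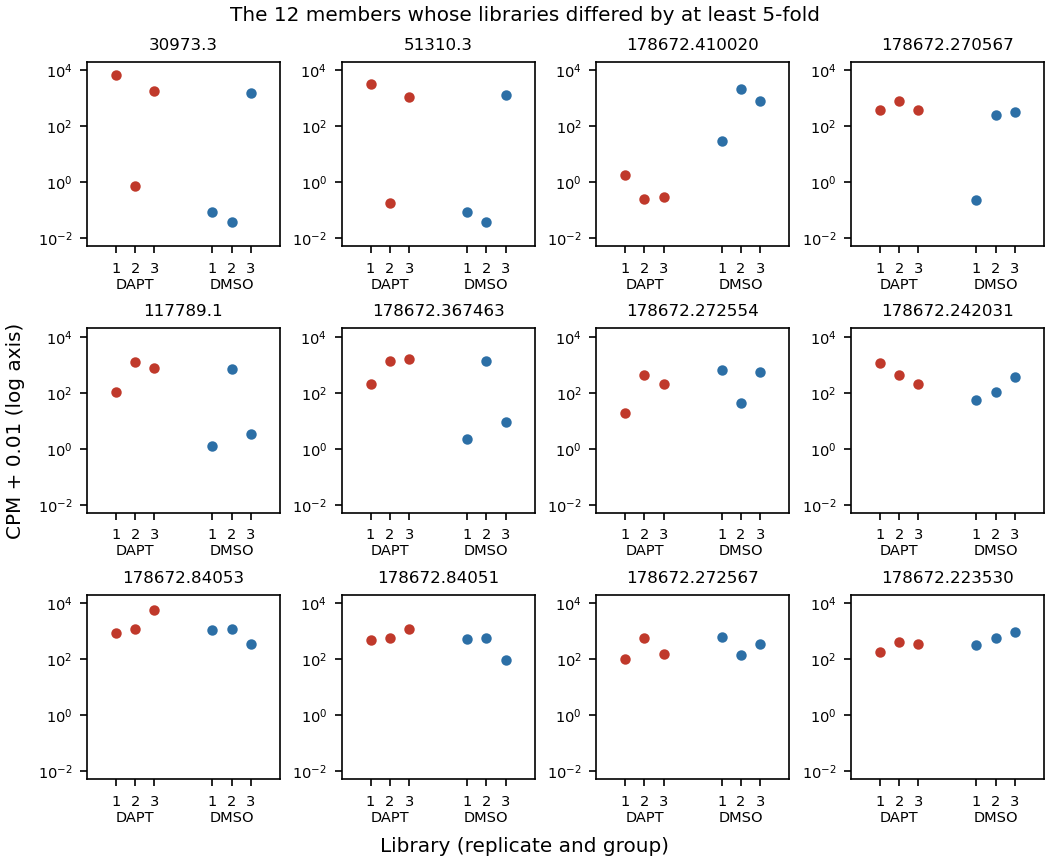
CPM (0.01 added, log axis) of the 12 members whose libraries differed by at least 5-fold, with DAPT libraries in red to the left and DMSO libraries in blue to the right, 1 point per animal. Cluster-30973.3 and Cluster-51310.3 are high in DAPT 1, DAPT 3 and DMSO 3, and Cluster-178672.410020 is the one panel in which all DAPT points lie below all DMSO points.

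The members fell into 48 super-clusters, but 148 of them (74.0%) were in a single one of 421,246 clusters, against 65.8% of the next 1800 clusters by rank and 41.6% of all clusters. Its members held 11.2 to 13.0% of the counts of DAPT libraries and 13.1 to 13.4% of those of DMSO libraries. The 52 members outside it were spread over 47 super-clusters, 42 of which held 1 member and 5 of which held 2. Only 2 members were alone in their super-cluster, 1.0% of the members against 28.1% of all clusters. Nearly every member therefore has relatives with which it shares reads, and its own count can depend on how those reads were divided.

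In the largest super-cluster, members with close numbers often moved together. For the 53 pairs within 20 numbers of each other the median Pearson r of log2(CPM + 1) over the 6 libraries was 0.879, and 47.2% of them exceeded 0.9. For the 10,825 pairs further apart the median was 0.0879 and 1.64% exceeded 0.9. These pairs share libraries and depth and can share reads, so the values are descriptive. Such neighbours formed 18 runs of 50 members, the longest of 5 members.

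The run of Cluster-178672.280684 to Cluster-178672.280688 summed to 3118, 3957 and 7117 CPM in DAPT and 6734, 5809 and 7093 CPM in DMSO arms, its members correlating at 0.977 or more. The run that starts at Cluster-178672.176258, also of 5, was steadier, at 2655, 3026 and 2490.4 CPM in DAPT and 3252, 3139 and 2698 CPM in DMSO arms, while its members correlated between -0.56 and 0.977. In 5 of the 18 runs the sum was steadier than any of its members. The summed CPM of 2 runs were lower in all DAPT than in all DMSO libraries, and those of 0 runs were higher. One was the run of Cluster-178672.327292, with 1279, 1383 and 1310.3 CPM in DAPT and 1525, 1547 and 1468 CPM in DMSO arms. The other was the run of Cluster-178672.227549, Cluster-178672.227551 and Cluster-178672.227558, with 9443, 9643 and 10,221 CPM in DAPT and 10,709, 10,990.4 and 12,143 CPM in DMSO arms.

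The pairs in smaller super-clusters also differed in how they moved. Cluster-239141.3 and Cluster-239141.4 kept a ratio of 3.22 to 3.57 in DAPT and 3.05 to 3.14 in DMSO libraries, and their sum was 2118 ± 846 CPM in DAPT and 2015 ± 331 CPM in DMSO arms (SD, n = 3 each). Cluster-2455.2 was 3.28 to 5.17 times Cluster-2455.1 in DAPT and 2.26 to 4.42 times in DMSO libraries, with a sum of 2281 ± 820.0 CPM in DAPT and 2851 ± 39.1 CPM in DMSO arms. The pair of super-cluster 201231 summed to 1433 ± 156 CPM in DAPT and 1123 ± 301 CPM in DMSO arms. The pair of super-cluster 22125 summed to 1161 ± 134 CPM in DAPT and 1084 ± 170.0 CPM in DMSO arms, and that of 178936 to 798 ± 155 CPM in DAPT and 1013 ± 117 CPM in DMSO arms. All 5 sums overlapped between the groups.

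None of the 200 members was called different between DAPT and DMSO arms by edgeR's quasi-likelihood test over 970,597 clusters, at an adjusted p under 0.05 and a log2 fold change of at least 0.58 in size. Over all clusters the test called 10 (0.00103%). The lowest adjusted p of a member was 0.394. At an unadjusted p under 0.05, 33 members were lower in DAPT (16.5%, against 4.48% of all clusters and 6.83% of the next 1800 clusters). In the other direction 4 members were higher (2.0%, against 3.53% of all clusters and 7.39% of the next 1800 clusters). That split moved with the libraries used. It was 18 lower and 5 higher without DAPT 1, 27 lower and 10 higher without DAPT 2, and 41 lower and 4 higher without DAPT 3. Without DMSO 1 it was 20 lower and 10 higher, without DMSO 2 22 lower and 7 higher, and without DMSO 3 24 lower and 6 higher. Over all clusters these fits placed 55,536 to 65,796 of 864,232 to 913,767 there, both directions together. The split by direction over all clusters is not given here for these fits, so the members' splits have no matching background. DESeq2 placed 8 members at an unadjusted p under 0.05, against 54,803 of all 970,597 clusters. Limma-voom placed 60 members there, against 39,629 of all 970,597 clusters. The members' share was below that of all clusters with DESeq2 and above it with limma-voom.

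The ranges of the groups gave a similar split. With libraries scaled by TMM, all DAPT libraries lay below all DMSO libraries in 30 members (15.0%, against 4.71% of all clusters and 9.06% of the next 1800 clusters). All DAPT libraries lay above all DMSO libraries in 6 members (3.0%, against 4.91% of all clusters and 8.83% of the next 1800 clusters). The 30 lower members were in 11 super-clusters, 20 of them in the largest. Members of a super-cluster can share reads, which was not measured, so they cannot be counted as 30 independent observations. The groups are small, and fewer cells of a type cannot be told apart from less RNA per cell in such bulk tissue.

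The differences were mostly small. The median log2 fold change of the members (DAPT over DMSO) was -0.14, against 0.01 over all clusters and 0.01 over the next 1800 clusters. Of the members, 131 (65.5%) were below 0, against 49.6% of all clusters and 48.6% of the next 1800 clusters. The median was between -0.15 and -0.12 in each block of 50 ranks, with 30 to 34 of 50 members below 0. In 172 members (86.0%, against 39.6% of all clusters and 78.2% of the next 1800 clusters) the estimate was smaller than 0.58. In 75 members the whole 95% interval lay within 0.58 on either side of 0, where a change of that size was therefore outside the interval. This held for 332 of the next 1800 clusters and 712 of all 970,597 clusters. The median half-width of the interval was 0.40 for the members, 0.56 for the next 1800 clusters and 2.43 for all clusters. Estimates of at least 1 in size were found in 10 members, 7 higher and 3 lower. They were found in 155 of the next 1800 clusters (94 higher and 61 lower) and in 408,843 of all 970,597 clusters (207,633 higher and 201,210 lower).

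**Figure D4:**
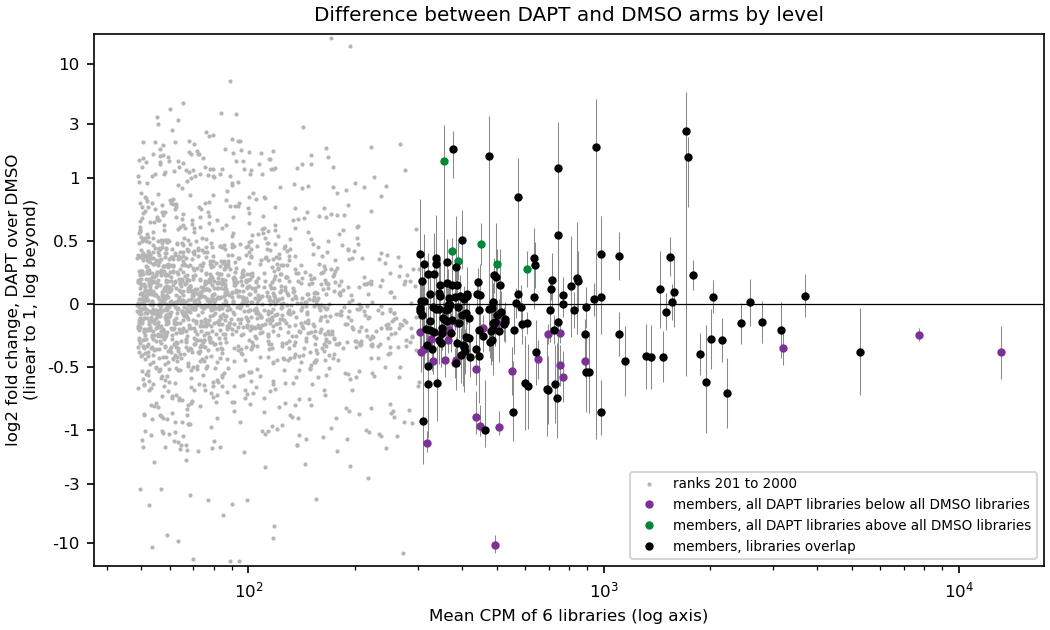
Log2 fold change of each member (DAPT over DMSO, linear to 1 and logarithmic beyond) against mean CPM (log axis), with bars of 1 standard error, and the next 1800 clusters by rank in grey without bars. The 30 members whose DAPT libraries all lie below the DMSO libraries are purple and the 6 with the opposite order green, and 131 of 200 points lie below 0.

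The members with the smallest p among those lower in DAPT were 2 whose DAPT means were 50.9% and 51.3% of the DMSO means. Cluster-243093.2 had 285, 378 and 366 CPM in DAPT and 739, 598 and 683 CPM in DMSO arms. Its log2 fold change was -0.98 (SE 0.131, 95% interval -1.29 to -0.67), with an edgeR adjusted p of 0.394 and a DESeq2 adjusted p of 0.0721. The 2 other clusters of its super-cluster summed to 7.88, 21.0 and 22.6 CPM in DAPT and 40.8, 57.1 and 25.6 CPM in DMSO arms, also without overlap.

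Cluster-299067.0 had 233, 317 and 364 CPM in DAPT and 608, 553 and 623 CPM in DMSO arms. Its log2 fold change was -0.97 (SE 0.161, 95% interval -1.35 to -0.59), with an edgeR adjusted p of 0.575. It held 99.6% of the CPM of its super-cluster, and its 3 relatives summed to 1.11 to 1.72 CPM in DAPT and 1.69 to 1.85 CPM in DMSO arms.

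The remaining 3 of the lower members with the smallest p were in the largest super-cluster. Cluster-178672.410020, described above, had a log2 fold change of -10.36 (SE 1.86) and an edgeR adjusted p of 0.575. DESeq2 called it lower in DAPT at an adjusted p of 6.06e-09, the one member that tool called, where it called 0.476% of 520,518 clusters with an adjusted p lower and 0.379% higher. Leaving out any single library kept that DESeq2 call, with adjusted p between 1.5e-13 and 1.06e-05, while edgeR made no call of a member with any library left out.

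Cluster-178672.269058 had 329, 333 and 316 CPM in DAPT and 446, 449 and 431 CPM in DMSO arms. Its log2 fold change was -0.45 (SE 0.0911, 95% interval -0.66 to -0.23). In Cluster-178672.227551, the second most abundant cluster, the difference was -0.25 (SE 0.0518, 95% interval -0.37 to -0.13), a DAPT mean of 84.5% of the DMSO mean. Both had an edgeR adjusted p of 0.575. Among the lower members Cluster-262732.3, picked after its values were seen, had 146, 138 and 264 CPM in DAPT and 542, 377 and 438 CPM in DMSO arms, and its log2 fold change of -1.31 (SE 0.276) had an edgeR adjusted p of 0.575.

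Among the higher members, 3 of the 5 with the smallest p did not overlap between groups. Cluster-178672.189818 had 441, 445 and 405 CPM in DAPT and 336, 325 and 299 CPM in DMSO arms. Its log2 fold change was 0.42 (SE 0.102, 95% interval 0.18 to 0.66), with an edgeR adjusted p of 0.575. Cluster-178672.198170 had 628, 503 and 446 CPM in DAPT and 435, 369 and 323 CPM in DMSO arms. Cluster-272519.40 had 529, 583 and 562 CPM in DAPT and 498, 368 and 474 CPM in DMSO arms.

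Cluster-178672.228192 and Cluster-367158.1 overlapped. The first had 1917, 1481 and 1821 CPM in DAPT and 1402, 1492 and 1109 CPM in DMSO arms, but the 40 clusters next to it in number summed to 18.3, 379 and 46.9 CPM in DAPT and 760.0, 904 and 19.0 CPM in DMSO arms. With these neighbours added the sums were 1935, 1860.2 and 1868 CPM in DAPT and 2162, 2396 and 1128 CPM in DMSO arms, with means of 1888 CPM in DAPT and 1895 CPM in DMSO arms. Cluster-367158.1 had 434, 339.7 and 364 CPM in DAPT and 281, 246 and 358 CPM in DMSO arms. The 13 other clusters of its super-cluster summed to 413, 359 and 399 CPM in DAPT and 215, 118 and 322 CPM in DMSO arms, without overlap.

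**Figure D5:**
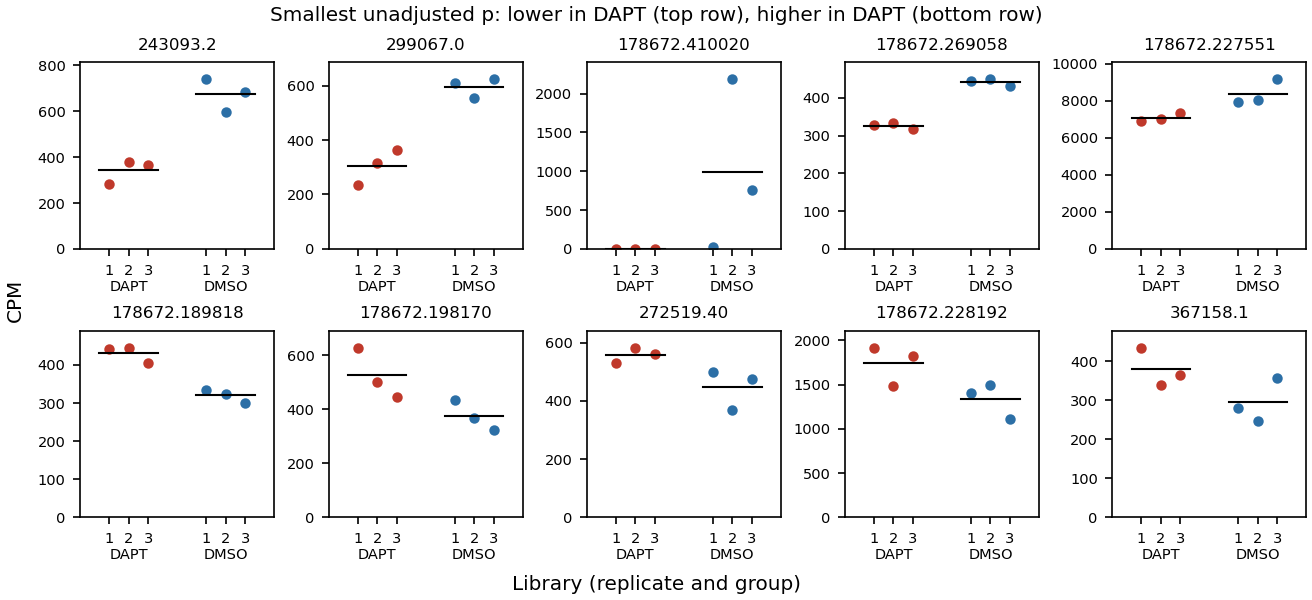
CPM of the 5 members with the smallest unadjusted p among those lower in DAPT (top row) and the 5 among those higher in DAPT (bottom row), with DAPT animals in red to the left, DMSO animals in blue to the right and group means as bars, each panel from 0. The DAPT points lie below all DMSO points in the 5 upper panels, and the groups overlap in Cluster-178672.228192 and Cluster-367158.1.

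The sum over the members turned partly on the variable ones. Without the 12 that differed by at least 5-fold, the other 188 held 13.5%, 13.98% and 15.2% of the DAPT libraries and 16.5%, 15.8% and 16.1% of the DMSO libraries, and the groups no longer overlapped. The difference was -1.91 percentage points, with means of 14.2% ± 0.854 in DAPT and 16.1% ± 0.385 in DMSO arms (SD, n = 3 each). These 12 were chosen for their spread after the values were seen, and the contrast was not tested.

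Libraries resembled each other within and between groups to about the same degree. Over the log2(CPM + 1) of the 200 members, Pearson r was 0.432 to 0.804 for the 6 pairs of libraries of 1 group and 0.312 to 0.784 for the 9 pairs across groups. Without the 12 variable members the ranges were 0.822 to 0.945 and 0.814 to 0.911. The points are clusters that share libraries and can share reads, and they are not independent.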

How the data were processed

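RNA from 6 animals was sequenced as paired reads in a single flow cell. The authors assembled the reads de novo with Trinity (so no genome build applies) and matched them to the contigs with Salmon 0.13.1. They grouped and counted them with Corset 1.08, which splits contigs into clusters by shared reads and by their expression patterns. Corset was given the groups DMSO and DAPT when it did so, and the part of this in the differences between the groups was not tested. Bowtie2 and DESeq2 are listed in the submitters' processing notes as well. The deposited values are raw counts per cluster and library, and every column of the table was mapped to a sample by its name. How reads shared by similar contigs were divided can change the count of a single cluster.

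CPM used library totals. DAPT was tested against DMSO with edgeR 4.0.16 (glmQLFit with legacy = FALSE, TMM, R 4.3.3) over the clusters with at least 10 summed counts, with Benjamini-Hochberg adjustment. DESeq2 1.42.0 and limma-voom 3.58.1 were alternatives, together with other scalings, count filters and rankings, the replicate number as a block, and leaving out each library. DESeq2 without each library and edgeR's older quasi-likelihood estimate were added after seeing the data. The edgeR step was tested on simulated counts. These gave every cluster the same dispersion (spread beyond counting error), lower than the 0.508 fitted to the data. That run therefore cannot give the rate of missed or false calls here. Figures were drawn with matplotlib 3.10.9.

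The members and the lists were chosen with earlier results of these data known. Clusters were named by rule: the 10 highest, the 5 smallest p in each direction, the 5 largest and 5 smallest ratios between libraries, those called by a tool or with under 10 counts in a library, those at the rank limit, and pairs within a super-cluster. Neighbours of named members, the 12 variable members and runs were named after their values were seen. Replicate numbers were not used to pair the samples in the main test, and each library came from a different animal. Deviations of same-numbered libraries correlated at -0.31, 0.499 and 0.384 over the members and at 0.0146, 0.0173 and 0.0456 over all tested clusters. Libraries of different numbers were not compared in this way, so these values cannot decide whether the numbers mark pairs. P-values rest on the spread between 3 animals a group. In edgeR that spread was fitted with a dispersion common to all clusters and moderated towards the other clusters tested. A member's p therefore also depends on which clusters were tested with it.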

Additional observations from a re-analysis of the deposited data

How the results depend on the processing

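No member was called by edgeR or limma-voom under any of the alternatives run with them. DESeq2 called 1 member lower and 0 higher, where over all 520,518 clusters with an adjusted p it called 2479 lower and 1973 higher. With each library left out it called 1 to 2 members lower and 0 to 2 higher. Over all clusters those fits called more, 6224 to 7575 of 410,654 to 451,784 with an adjusted p. Cluster-178672.367463 and Cluster-117789.1 were called higher without DMSO 2, and Cluster-30973.3 and Cluster-51310.3 higher without DMSO 3. Cluster-262732.3 was called lower without DAPT 3. Members at an unadjusted p under 0.05 numbered 37 in the report, 8 with DESeq2 and 60 with limma-voom. They numbered 13 when only clusters averaging 1000 counts or more were tested, and 21 with edgeR's older estimate. Over all clusters tested these counts were 77,783, 54,803 and 39,629 of 970,597, then 567 of 5408 and 50,542 of 970,597. The members' share was below that of all clusters with DESeq2 and among clusters averaging 1000 counts, and above it in the others. Leaving out a library gave 23 (without DAPT 1) to 45 with edgeR, of which 18 to 41 were lower and 4 to 10 higher in DAPT. Over all clusters those edgeR fits gave 55,536 to 65,796 of 864,232 to 913,767 clusters tested, both directions together. With DESeq2 the members numbered 1, 2, 14, 1, 5 and 7 (without DAPT 1, 2 and 3 and DMSO 1, 2 and 3). The matching DESeq2 counts over all clusters were not recorded. With the replicate block the count was 51 (42 lower and 9 higher), against 53,767 of 970,597 clusters. There were 0 calls, and the median log2 fold change of the members was -0.14. Without single libraries that median ranged between -0.185 and -0.083, and the median over all clusters tested between -0.057 and 0.169. The members were closest to all clusters without DAPT 1 (-0.093 against -0.057) and furthest from them without DMSO 3 (-0.107 against 0.169). The size of the members' shift therefore depended on the libraries used. The members without overlap numbered 28 to 33 lower and 5 to 6 higher under the other scalings. The matching shares over all clusters are not given here, so these counts are read against no background. The 100 highest clusters held 11.8% of DAPT and 12.9% of DMSO counts in 23 super-clusters, with a median coefficient of variation of 19.0%. The 500 highest held 21.3% of DAPT and 23.0% of DMSO counts in 121 super-clusters. Without single libraries the shares were 14.8 to 15.7% for DAPT and 16.7 to 16.8% for DMSO, in 46 to 50 super-clusters, and the coefficient of variation was 14.3% (without DAPT 3) to 17.8%. Of 400 log2 fold changes of 40 named members under 10 alternatives, 18 in 9 members changed sign, each on leaving out a library and each in a member within 0.145 of 0. Causes were not tested.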

Other observations

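Clusters that are nearly absent in some animals were also found below the limit. Among the next 1800 clusters by rank, 76 differed by at least 100-fold between libraries. In 56 of them libraries of both groups were within 10-fold of the highest library, in 6 only DAPT libraries were and in 14 only DMSO libraries. The most frequent sets of high libraries were DAPT 2, DAPT 3 and DMSO 2 in 11 clusters and all 3 DAPT libraries with DMSO 2 in 9. A further 4 clusters were high in DAPT 1, DAPT 3 and DMSO 3, the libraries in which Cluster-30973.3 and Cluster-51310.3 were high. These clusters were picked for their spread, so the counts are descriptions.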
